A study of Mus musculus with 16 samples.

Results

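The mitotic kinesins described here are 10 of the 54838 genes counted in each sample: Kif11, Kif15, Kifc1, Kif4, Kif22, Kif2c, Kif18b, Kif20a, Kif20b and Kif23. They were taken as a list of gene symbols and found in the deposited files by Ensembl gene identifier. No measured value was used to find them, but the list was chosen with earlier results of these data known. The study sequenced messenger RNA from whole liver of male C57BL/6J mice labelled Wild Type, which all 4 groups share; age was not given in the labels. Both experiments concern regrowth of the liver, after a toxin or after surgery, and were sampled at day 3. In the CCl4 group (n = 3) mice received carbon tetrachloride, which kills hepatocytes, in a mixture of equal parts CCl4 and olive oil by volume, at 2 µl of mixture per g body weight. Mice of the olive oil group (n = 3) received the same volume of olive oil alone by intraperitoneal injection; livers were taken 3 days later. In the PH groups the liver removed at partial hepatectomy served as PH day 0 (n = 5), and the remnant taken 3 days after surgery as PH day 3 (n = 5), so no sham-operated liver enters that comparison. Nothing in the labels says that the samples of a group were separate animals, so p-values measure the spread between these samples, which may be technical.

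Kinesins are motor proteins that use ATP to move along microtubules or to take their ends apart. Those of the mitotic spindle are made mainly in cells that are about to divide, and serve in turn to separate the spindle poles, to move chromosomes, to trim microtubule ends and to complete cytokinesis. Adult hepatocytes are mostly quiescent, and re-enter the cell cycle when liver mass is lost.

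Many genes of late cell cycle phases carry, near their start site, a short element known as the cell cycle genes homology region (CHR), which is bound by the MuvB complex, often with CCAAT boxes bound by NF-Y a little upstream. Promoter windows from RefSeq (assembly GRCm38.p6), from 250 bases before the annotated start to 50 bases from it on, were at hand for 9 of the 10 genes, and Kif20a was without one. They are shown because all 9 hold the CHR-like letters TTTGAA on one strand or the other (TTCAAA is the reverse complement), against 18.1% of 27025 mouse windows of the same length. In 8 of the 9 the letters lie within 25 bases of the start, as they do in 2.43% of windows; that distance was chosen after the positions were seen. The following stretches run 5′ to 3′ on the strand of the gene from 80 bases before the start to 30 from it on, with the CHR-like and CCAAT letters, on either strand, in capitals. Kif11 lies at chr19:37376302-37376411 (plus strand), Kif20b at chr19:34922278-34922387 (plus), Kif23 at chr9:61946770-61946879 (minus) and Kif18b at chr11:102925095-102925204 (minus).
Kif11: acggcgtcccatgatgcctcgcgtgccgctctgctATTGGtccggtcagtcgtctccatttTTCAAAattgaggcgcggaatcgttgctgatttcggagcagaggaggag
Kif23: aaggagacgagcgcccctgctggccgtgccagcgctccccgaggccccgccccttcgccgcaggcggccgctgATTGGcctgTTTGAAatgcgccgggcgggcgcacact
Kif18b: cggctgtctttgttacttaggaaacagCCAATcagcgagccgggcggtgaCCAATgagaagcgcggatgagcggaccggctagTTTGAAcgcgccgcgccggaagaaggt
Kif20b: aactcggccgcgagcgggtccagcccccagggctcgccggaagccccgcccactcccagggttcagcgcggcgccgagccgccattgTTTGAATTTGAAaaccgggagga
Kif11 and Kif23 have a CCAAT box on the reverse strand followed by the CHR-like letters, Kif18b has 2 CCAAT boxes ahead of them, and Kif20b has TTTGAA in 2 adjacent copies and no CCAAT in its window. In 5 other members the letters nearest the start are shown alone, capitals marking TTTGAA or its reverse complement, in 30 bases each: Kif4 at chrX:100626072-100626101 (plus), Kif15 at chr9:122951050-122951079 (plus), Kif22 at chr7:127042420-127042449 (minus), Kifc1 at chr17:33890615-33890644 (minus) and Kif2c at chr4:117178858-117178887 (minus).
Kif4: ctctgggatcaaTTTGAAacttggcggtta
Kif15: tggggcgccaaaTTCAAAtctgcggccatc
Kif22: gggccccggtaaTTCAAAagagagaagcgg
Kifc1: cggaggttgaaaTTCAAAagtggcgggtgt
Kif2c: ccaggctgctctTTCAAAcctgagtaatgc

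CCAAT, on either strand, was found in 6 of the 9 windows and in 37.9% of all windows. The same 6 (Kif11, Kif23, Kif4, Kif18b, Kif22 and Kifc1) have CCAAT between 80 bases before and 30 bases from the start together with TTTGAA within 25 bases of it, a pair found in 0.485% of all windows. The 25 bases were chosen after the positions were seen and the stretch was not planned beforehand, so this share is a description. The number of bases between the 2 elements differed among these 6 genes, from 4 in Kif23 to 41 in Kifc1. The related letters TTTAAA, which read the same on both strands, were in the Kif2c window only, against 13.2% of windows. Of the E2F-like letters, TTGGCGC was in the Kif15 window only, where it lies just ahead of the CHR-like letters, against 2.54% of windows, and TTCCCGC was in none of the 9, against 4.66%. The RefSeq start of Kif2c lies 3867 bases from the start of its Ensembl gene model and that of Kif4 328 bases from its own, so these may not be the promoters in use; the other 7 differ by 0 to 51 bases. A match of letters is a description of the sequence, and binding was not measured.

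**Figure D1:**
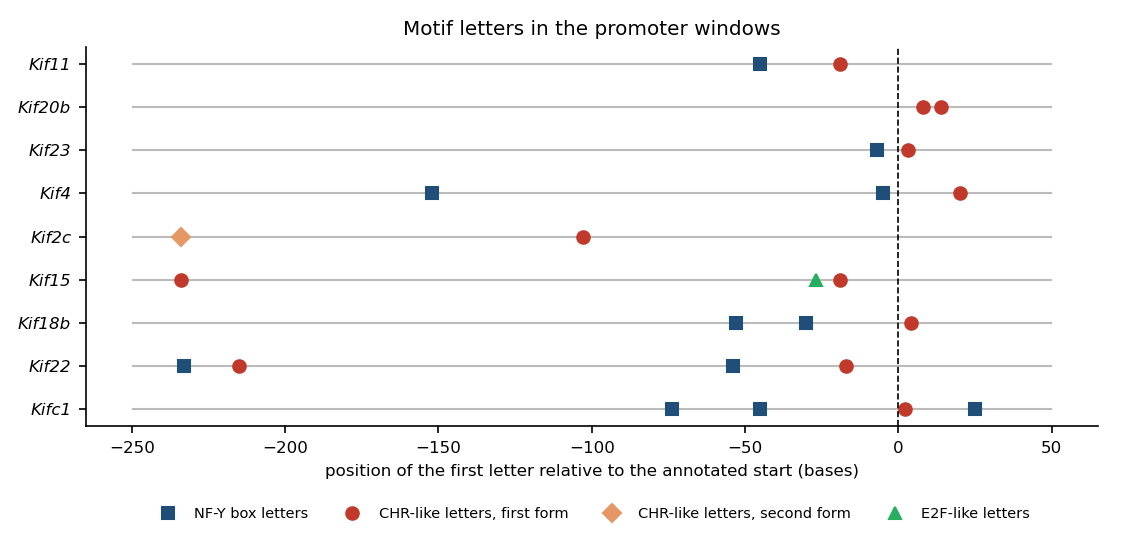
Positions of motif letters in the promoter windows of 9 mitotic kinesin genes. The x axis gives bases from the annotated start (dashed line) and each row is 1 gene; squares mark the NF-Y box letters, circles and the diamond the 2 CHR-like forms, and the triangle the E2F-like letters. Circles lie within 25 bases of the start in 8 of the 9 genes, and Kif2c has its circle 103 bases before it.

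Total counts per sample were 4738196 to 6218526 in CCl4, 4295169 to 5221957 in olive oil, 3271398 to 8647503 in PH day 0 and 2795909 to 4391002 in PH day 3. At this depth 3 counts equal 0.368 to 1.03 CPM (counts of a gene per 1e6 counts of the sample), so the values of most kinesins in the control groups rest on a few reads. CPM values are scaled with trimmed mean of M-values (TMM) factors over all 16 samples. A gene was called when edgeR's quasi-likelihood test gave an adjusted p under 0.05 over all genes tested, and changes are log2 fold changes ± standard error (SE). All 7 hepatocyte markers found, led by Alb, were abundant in every group, with summed levels of 81499.6 to 135644 CPM.

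The kinesins as a group were near the limit of detection in the control livers and well above it in the regrowing ones. Their summed level was 4.38 to 7.26 CPM in olive oil and 87.6, 292 and 169 CPM in CCl4 replicates 1 to 3. It was 6.95, 5.45, 5.06, 13.6 and 3.77 CPM in PH day 0 replicates 12 to 16, and 57.9, 97.7, 107, 155 and 104 CPM in PH day 3 replicates 12 to 16. For 10 of 10 members every CCl4 sample was above every olive oil sample, which holds for 21.4% of all genes tested. For 10 of 10 every PH day 3 sample was above every PH day 0 sample, which holds for 6.75% of the genes tested there. Kif15 and Kif18b are not among those genes. The members tested passed the filter on low counts through the group in which they were high, so this is a description. In whole liver, more cells with these transcripts and more RNA per cell cannot be told apart.

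After CCl4, 10 of 10 members were tested and 10 rose, where 11.3% of the 11337 genes tested rose. After partial hepatectomy 8 of 10 were tested and 8 rose, where 9.73% of 10546 did; Kif15 and Kif18b had too few counts to be tested. The members passed the filter on low counts through the group in which they were high, so these counts are a description. The median log2 change was 5.17 after CCl4 (the same with Kif18b, which had no counts in olive oil, at its lower bound) and 4.15 after hepatectomy, against 0.0060 and -0.0053 over all genes tested. Without the filter on low counts 9 of 10 were called as risen after CCl4 (8.45% of genes) and 10 of 10 after hepatectomy (6.96%).

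**Figure D2:**
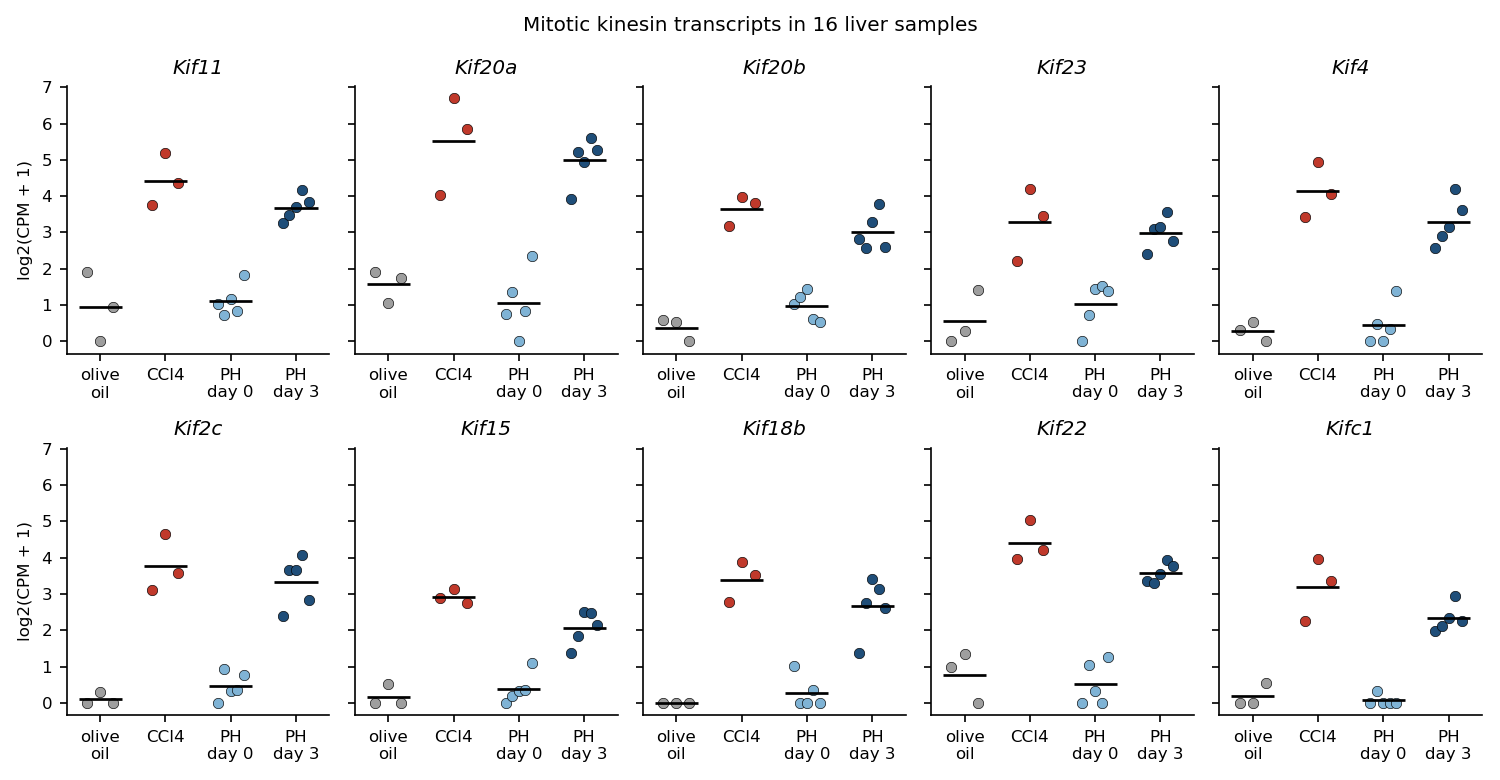
Level of each mitotic kinesin in the 16 liver samples. The y axis is log2(CPM + 1), each point is 1 sample and each bar the group mean of the plotted values; groups are olive oil and CCl4 (n = 3 each) and PH day 0 and PH day 3 (n = 5 each). In all 10 panels the CCl4 points lie above the olive oil points and the PH day 3 points above the PH day 0 points.

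Motors that set up the spindle come first. Kif11, also known as Eg5, slides antiparallel microtubules apart to separate the poles. It stood at 2.75, 0 and 0.942 CPM in olive oil replicates 1 to 3 and at 12.5, 35.2 and 19.4 CPM in CCl4. The CCl4 samples were all higher, with replicate 2 above the others, and Kif11 rose by 4.21 ± 0.79 (edgeR, adjusted p = 0.010; 6.9e-11 to 0.058 over the alternatives). That call ended with limma-voom (adjusted p = 0.0503) and without olive oil replicate 3 (adjusted p = 0.058). In PH day 0 replicates 12 to 16 it was at 0.656, 1.24, 0.799, 2.53 and 1.03 CPM, and in PH day 3 at 8.59, 10.1, 11.9, 17.0 and 13.3 CPM. The 5 later samples spread little, and the rise was 3.30 ± 0.35 (edgeR, adjusted p = 3.5e-07).

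Kif15, a plus-end motor that can stand in for Kif11 once the spindle is bipolar, had the lowest mean CPM of the 10 in both CCl4 and PH day 3. It had 2 counts in all over the olive oil samples against 5.70 to 7.73 CPM in CCl4, a ratio of 43.1 with a 95% counting interval of 11.7 to 360 (edgeR, adjusted p = 0.00099). PH day 0 held 0 to 1.15 CPM and PH day 3 1.58 to 4.70 CPM, so the lowest later sample lay just above the highest earlier one. Kif15 was not tested after hepatectomy with the filter on low counts; without it the change was 3.10 ± 0.67 (edgeR, adjusted p = 0.00011) and with DESeq2 it was 3.23 (adjusted p = 0.00020).

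Kifc1, also known as HSET, moves towards minus ends and bundles microtubules at the poles. It had 2 counts over olive oil and 3.81, 14.6 and 9.29 CPM in CCl4, a ratio of 65.3 (17.8 to 543; edgeR, adjusted p = 0.0017). After hepatectomy it went from 2 counts over 5 samples, both in replicate 12, to 2.94 to 6.67 CPM, a ratio of 47.7 (12.8 to 401; edgeR, adjusted p = 4.3e-06). Its values are uncertain, because 39.7% of the 50-base windows of its transcripts also occur in another gene, nearly all of them in the near copy Kifc5b, while for the other members this share is at most 1.97%. Kifc5b rose after CCl4 by 3.39 ± 0.71 (edgeR, adjusted p = 0.0071), and the summed level of Kifc1 and Kifc5b was 0.219 to 0.706 CPM in olive oil, 6.35 to 18.3 in CCl4, 0 to 0.787 in PH day 0 and 3.64 to 7.81 in PH day 3. The sum separated the groups in both comparisons, as Kifc1 alone did.

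The chromokinesins Kif4 and Kif22 bind chromosome arms and push them towards the spindle equator; Kif4 also limits the length of the central spindle. Kif4 had 3 counts over olive oil and 9.73, 29.6 and 15.8 CPM in CCl4, a ratio of 86.2 (29.3 to 420; edgeR, adjusted p = 0.00041). It was at 0 to 1.61 CPM in PH day 0 and 4.97 to 17.5 CPM in PH day 3, a rise of 4.24 ± 0.57 (edgeR, adjusted p = 1.9e-05). Replicate 15 was the highest of its group on both days. Kif22 was at 1.00, 1.53 and 0 CPM in olive oil and at 14.6, 32.0 and 17.6 CPM in CCl4, a rise of 4.60 ± 0.61 (edgeR, adjusted p = 0.0012). In PH day 0 replicates 12 to 16 it was at 1.05, 0.248, 0, 1.38 and 0 CPM and in PH day 3 at 9.27, 8.83, 10.7, 14.3 and 12.6 CPM. The day 3 samples were close together, and Kif22 rose by 4.08 ± 0.45 (edgeR, adjusted p = 5.6e-07).

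Kif2c and Kif18b shorten microtubules. Kif2c, also known as MCAK, is a depolymerase that acts at centromeres and corrects faulty attachments. It had 1 count in the olive oil samples, in replicate 2, and 7.62, 24.3 and 10.9 CPM in CCl4, a ratio of 203 with a counting interval as wide as 36.1 to 8035 (edgeR, adjusted p = 0.00044). In PH day 0 replicates 12 to 16 it was at 0.918, 0.248, 0.266, 0.691 and 0 CPM, and in PH day 3 at 4.29, 11.7, 11.6, 15.9 and 6.12 CPM. Replicates 12 and 16 were low among the day 3 samples yet above all of day 0, and the rise was 4.22 ± 0.49 (edgeR, adjusted p = 1.1e-06).

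Kif18b acts at the plus ends of astral microtubules. It had 0 counts in the 3 olive oil samples and 5.93, 13.6 and 10.4 CPM in CCl4, at least 45.6-fold higher against a floor of 3 counts over the olive oil group (edgeR, adjusted p = 0.00056). Of the PH day 0 samples 3 had no count, replicate 14 had 1 and replicate 16 had 3, or 1.03 CPM. PH day 3 replicates 12 to 16 were at 1.58, 5.71, 9.71, 7.81 and 5.10 CPM, so replicate 12 was only a little above the highest day 0 sample. Kif18b was not tested with the filter; without it the change was 4.77 ± 0.62 (edgeR, adjusted p = 1.9e-12), and with DESeq2 4.96 (adjusted p = 5.0e-07).

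Kif20a, Kif20b and Kif23 act in anaphase and cytokinesis. Kif20a, also known as MKLP2, carries the chromosomal passenger complex to the central spindle. It was at 2.75, 1.10 and 2.35 CPM in olive oil and 15.4, 103 and 57.0 CPM in CCl4, where the samples differed most among all members in absolute terms. Its rise of 4.82 ± 0.94 passed the test (edgeR, adjusted p = 0.022; 5.0e-07 to 0.22 over the alternatives), but the call ended without the filter on low counts (adjusted p = 0.058), with limma-voom (0.22) without CCl4 replicate 3 (0.062) and without any 1 of the olive oil samples (0.072, 0.074 and 0.077). In PH day 0 replicates 12 to 16 it was at 1.57, 0, 0.799, 4.15 and 0.685 CPM and in PH day 3 at 14.2, 36.4, 29.8, 47.3 and 37.4 CPM. Replicate 12 was the low sample on day 3, and the rise was 4.42 ± 0.56 (edgeR, adjusted p = 0.00052).

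Kif20b, which acts late in cytokinesis, was at 0.500, 0.438 and 0 CPM in olive oil and at 8.04, 14.6 and 13.0 CPM in CCl4. The CCl4 samples lay closer together than those of Kif20a, and Kif20b rose by 5.14 ± 0.59, the smallest adjusted p of the 10 (edgeR, adjusted p = 0.00031). In PH day 0 replicates 12 to 16 it was at 1.31, 1.73, 0.533, 0.461 and 1.03 CPM and in PH day 3 at 6.10, 4.94, 8.77, 12.9 and 5.10 CPM, a rise of 2.85 ± 0.42 (edgeR, adjusted p = 2.3e-05). Kif23, also known as MKLP1, forms centralspindlin with Racgap1 and bundles midzone microtubules. It was at 0 to 1.65 CPM in olive oil and 3.60 to 17.3 CPM in CCl4, a rise of 4.00 ± 0.92 (edgeR, adjusted p = 0.018; 1.1e-11 to 0.076 over the alternatives). The Kif23 call ended with limma-voom (adjusted p = 0.062) and without olive oil replicate 1 (0.053) or 2 (0.076). After hepatectomy it went from 0 to 1.86 CPM to 4.29 to 10.8 CPM and had the lowest rise of the 8 members tested, 2.62 ± 0.44 (edgeR, adjusted p = 0.00014).

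**Figure D3:**
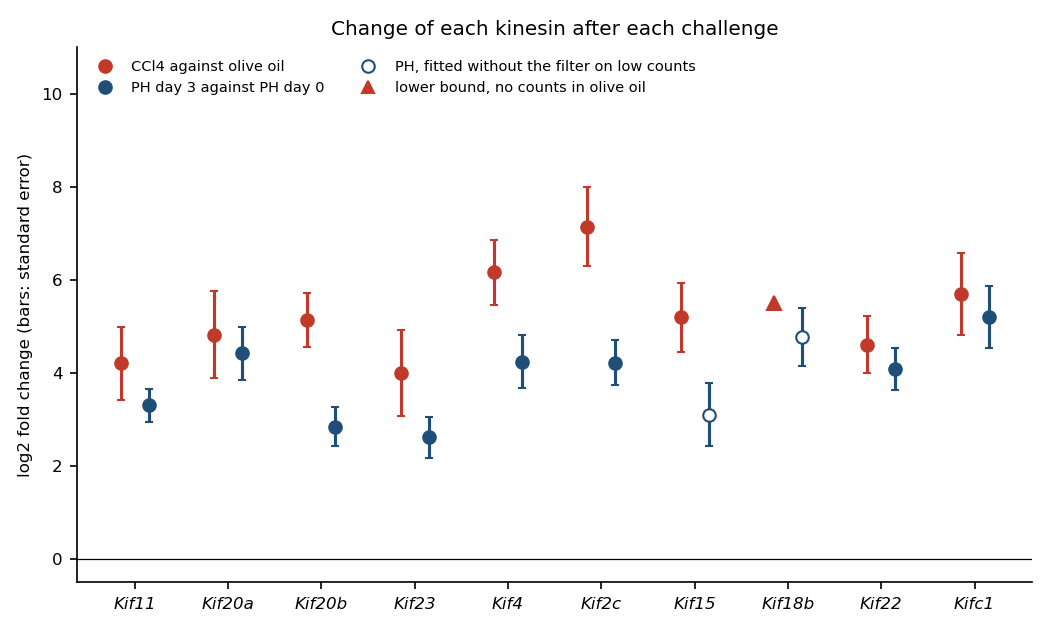
Log2 fold change of each mitotic kinesin (y axis) after CCl4 and after partial hepatectomy, with bars for 1 SE from edgeR. The triangle is the lower bound of Kif18b, which had no counts in olive oil, and open circles are fits without the filter on low counts. Every estimate is above 0, from 2.62 (Kif23 after hepatectomy) to 7.14 (Kif2c after CCl4).

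At or above the log2 fold change of the lowest member tested were 1.31% of the genes tested after CCl4 and 0.967% after hepatectomy. The members had few control counts and passed the filter through the group in which they were high, so these shares are a description. The 3 members lost in some alternatives after CCl4 (Kif11, Kif20a and Kif23) were the 3 with the largest adjusted p. None of the 8 members tested after hepatectomy lost its call under the alternatives.

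The samples of a group differed along the whole set. CCl4 replicate 2 was the highest of its group for 10 of 10 members and replicate 1 the lowest for 9, Kif15 being the exception. In PH day 3, replicate 15 was the highest for 8 members and replicate 12 the lowest for 8. Mki67, a marker of cycling cells that is no kinesin, stood at 65.2, 187 and 124 CPM in CCl4 replicates 1 to 3 and at 33.4, 44.9, 51.7, 86.0 and 64.9 CPM in PH day 3 replicates 12 to 16. Its lowest and highest samples in both groups were those of the summed kinesins. Without CCl4 replicate 1, which also held the highest summed neutrophil markers (55.2 CPM against 1.96 and 8.15 in the other 2), 10 of 10 members were called.

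Levels were also compared per kb of exon. The length used covers all annotated exons of a gene, from 3414 bases in Kifc1 to 11020 in Kif15, whether or not liver uses them. On this scale Kif20a was the most abundant member in all 8 regrowing samples. Its level was 15.4 ± 11.5 CPM per kb in CCl4 (SD, n = 3) and 8.70 ± 3.22 in PH day 3 (SD, n = 5), and it made up a median 40.3% and 37.2% of the summed per-kb level of the 10. Kif11 followed at 4.64 ± 2.42 and 2.53 ± 0.67 CPM per kb. Kif15 was last in both groups, at 0.598 ± 0.094 and 0.306 ± 0.121 CPM per kb, and last in every PH day 3 sample. Between these, the order in PH day 3 was Kif2c, Kif22, Kif4, Kif18b, Kifc1, Kif20b and Kif23. Kifc1 may stand too low here, because reads shared with Kifc5b were left out while its full exon length was used. Neighbours in the order overlapped, except Kif20a above Kif11 and Kif23 above Kif15 in PH day 3. In CCl4 no neighbours were separate. Among the 3 motors of cytokinesis, Kif20a was thus first of the 10 while Kif20b and Kif23 stood at ranks 8 and 9 in both groups. These ranks depend on the exon length used. By mean CPM, Kif23 (10.3 in CCl4 and 7.25 in PH day 3) was above Kif18b (9.99 and 5.98).

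**Figure D4:**
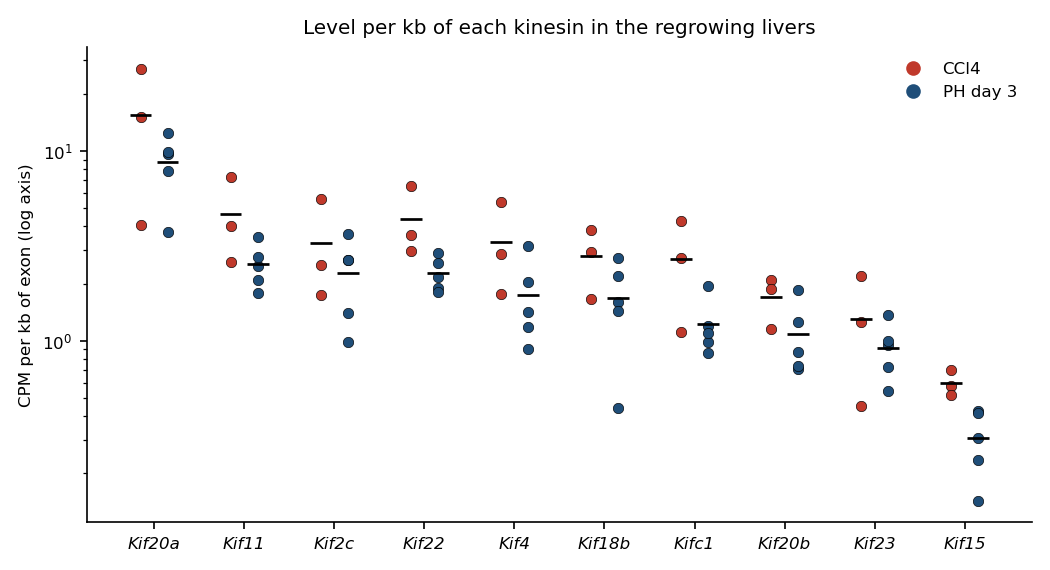
Level of each mitotic kinesin per kb of exon (log y axis, CPM per kb) in the CCl4 (n = 3) and PH day 3 (n = 5) samples; points are samples and bars group means, with genes ordered by their mean in PH day 3. Kif20a is highest in all 8 samples and Kif15 lowest in both groups by mean.

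Whether the response to CCl4 differed from that to hepatectomy was tested as the difference of the log2 changes over all 16 samples. No member passed with edgeR, DESeq2 or limma-voom, where 5.33% of the 11868 genes tested did with edgeR, and 2 had an unadjusted edgeR p under 0.05: Kif20b, larger after CCl4 by 2.30 ± 0.83 (edgeR, adjusted p = 0.11), and Kif2c by 2.89 ± 1.35 (adjusted p = 0.24). Of all genes, 8.39% were larger after CCl4 at that level. The estimate was above 0 for 10 of 10 members, against 51.8% of all genes, with a median of 1.66 and standard errors of 0.83 to 2.54; the members vary together across the same samples, and the estimate turned negative in some alternatives for Kif20a, Kif22 and Kifc1. In level, the CCl4 mean was above the PH day 3 mean for 10 of 10 members, against 51.5% of the 11868 genes. These groups did not overlap, in either direction, for 16.8% of the genes and for 2 of the 10 members, Kif15 (5.70 to 7.73 against 1.58 to 4.70 CPM) and Kif22 (14.6 to 32.0 against 8.83 to 14.3 CPM). Olive oil and PH day 0 overlapped for all 10, where they were separate in either direction for 11.7% of the genes. The file headers place the injection and surgery samples in different project folders, so the kind of challenge and anything else that differed between the 2 experiments cannot be told apart.

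Other spindle motors were found at similarly low levels in the control livers. Of 3 further mitotic kinesins, Cenpe, the kinetochore motor, and Kif14, a cytokinesis motor, were tested after CCl4 and both rose, Cenpe from 2 counts over olive oil to 19.7 ± 11.7 CPM (SD, n = 3; edgeR, adjusted p = 0.0014) and Kif14 from 1 count to 6.18 ± 2.32 CPM (edgeR, adjusted p = 0.00093). Cenpe was the only one tested after hepatectomy and rose by 5.32 ± 0.54 (edgeR, adjusted p = 2.2e-07). Kif18a, the third, was tested in neither.

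Many other kinesins carry vesicles and organelles. Of 33 listed transport and other kinesins and light chains, 19 were tested after CCl4, of which 1 rose and 4 fell (median 0.09), where 22.9% of all genes tested were called in either direction. After hepatectomy 16 were tested, of which 1 rose and 1 fell (median 0.02), where 17.7% of all genes were called. Kifc3 rose in both, by 1.32 ± 0.27 (edgeR, adjusted p = 0.0067) and 0.72 ± 0.22 (adjusted p = 0.039). Kif1c, which carries vesicles, fell in both, by 0.60 ± 0.16 (edgeR, adjusted p = 0.020) and 0.43 ± 0.09 (adjusted p = 0.0013), and Kif1b fell after CCl4 by 0.65 ± 0.13 (edgeR, adjusted p = 0.0065) and was at -0.23 ± 0.09 after hepatectomy (adjusted p = 0.0999). Kifc2 fell after CCl4 by 2.14 ± 0.52 (edgeR, adjusted p = 0.014), from a mean of 10.4 to 2.49 CPM, and Klc4 by 0.58 ± 0.18 (adjusted p = 0.038). Both passed the test of the difference of the responses, lower after CCl4, Kifc2 with -1.81 ± 0.54 (edgeR, adjusted p = 0.049) and Klc4 with -0.64 ± 0.18 (adjusted p = 0.039). The 33 listed genes summed to 666 to 688 CPM in olive oil and 566 to 580 CPM in CCl4. They summed to 649.5 to 697 CPM in PH day 0 and 587 to 649.53 CPM in PH day 3. In PH day 0 the 10 mitotic kinesins summed to 3.77 to 13.6 CPM. Of dynein and dynactin subunits, the minus-end motor and its adaptor, 13 of 14 were tested: 1 rose and 1 fell after CCl4 (median -0.08) and 2 rose after hepatectomy (median 0.02), with the light chain Dynll1 up in both (1.96 ± 0.27; edgeR, adjusted p = 0.00086, and 1.09 ± 0.23; adjusted p = 0.0016), Dctn3 down after CCl4 (-0.85 ± 0.18) and Dynlt3 up after hepatectomy (0.63 ± 0.16). Dynll2 after CCl4 (-0.41 ± 0.19; edgeR, adjusted p = 0.15) and Dctn3 after hepatectomy (-0.30 ± 0.18; adjusted p = 0.26) did not pass.

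Proteins that work with these kinesins are given from lists by step, where 11.3% of all genes tested rose after CCl4 and 9.73% after hepatectomy. Of 12 midzone and cytokinesis partners, 10 of 11 tested rose after CCl4 (median 5.46, or 5.45 with Cep55 at its bound) and 9 of 10 after hepatectomy (median 4.09); Rhoa did not pass in either, at 0.35 (edgeR, adjusted p = 0.10) and -0.0035. Racgap1, the partner of Kif23, rose by 5.78 ± 0.83 (edgeR, adjusted p = 0.0044) and 4.08 ± 0.39 (adjusted p = 5.2e-07). Aurkb, the kinase that Kif20a carries, rose by 5.46 ± 0.42 (edgeR, adjusted p = 4.4e-05) and 4.95 ± 0.54 (adjusted p = 4.3e-07). Besides Aurkb after CCl4, the smallest p were those of Anln, a cleavage furrow protein (5.45 and 4.53), and Incenp, the scaffold of the passenger complex (3.53 and 2.75), in both comparisons, and Birc5, a subunit of that complex, after hepatectomy (4.11). Of 16 spindle assembly partners, 13 rose after CCl4 (median 2.67) and 11 after hepatectomy (median 1.80), with Tpx2, which recruits Kif15 and Kif11 to the spindle, at 5.24 ± 0.96 (edgeR, adjusted p = 0.017) and 4.53 ± 0.43 (adjusted p = 5.3e-06). The smallest p in that list were those of Ckap2l (6.34), Nusap1 (5.85) and Tacc3 (4.53) after CCl4 and of Hmmr (5.54), Ckap2 (4.76) and Aurka (3.34) after hepatectomy, all proteins of spindle microtubules or poles. Numa1, a pole protein, was among those that did not pass. Of 16 kinetochore and depolymerase partners, 15 of 16 tested rose after CCl4 (median 5.64, or 5.08 with 4 genes without olive oil counts at their bounds) and 9 of 10 after hepatectomy (median 3.19). Its smallest p were those of Sgo2a (6.72), which guards centromere cohesion and recruits Kif2c, Nuf2 (5.46) and Spc25 (2.38) of the microtubule-binding Ndc80 complex after CCl4, and of Cdc20 (4.26), the activator of the anaphase-promoting complex, Nuf2 (5.10) and Knl1 (at least 40.3-fold, with no PH day 0 counts) after hepatectomy. These partners too passed the filter mostly through the regrowing livers.

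**Figure D5:**
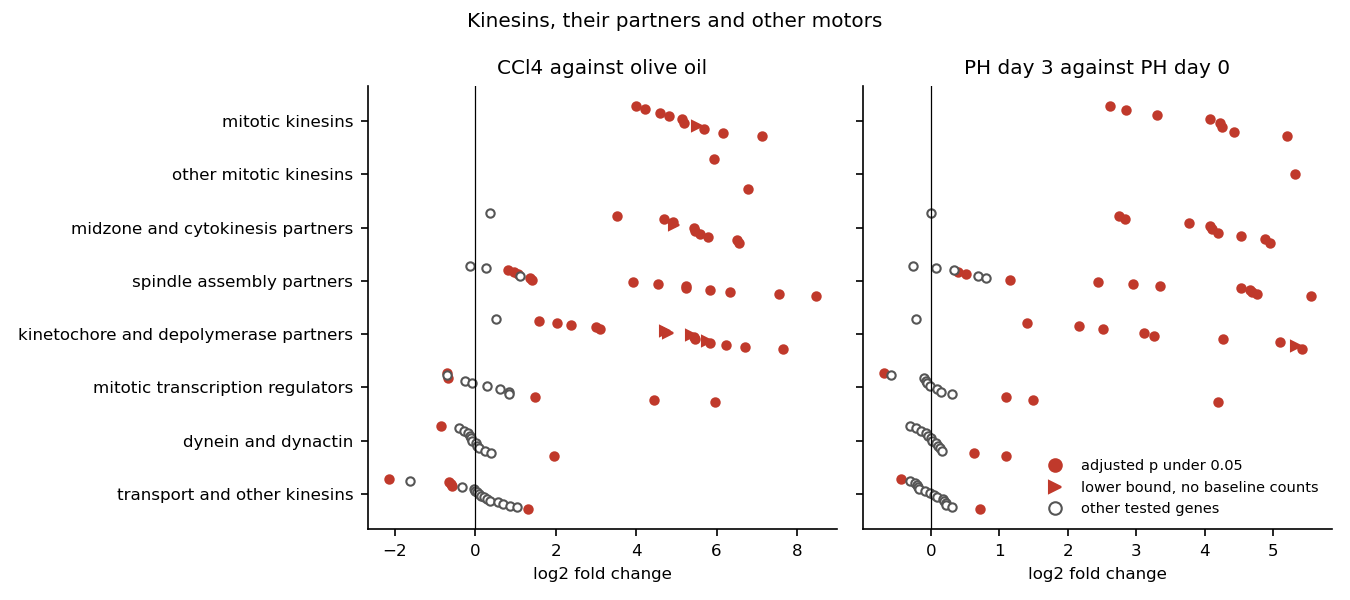
Log2 fold change (x axis) of each tested gene in 8 lists, after CCl4 (left) and after partial hepatectomy (right). Filled circles passed an adjusted p under 0.05 with edgeR, open circles did not, and triangles are lower bounds of genes without baseline counts. The mitotic kinesins and their midzone partners lie far to the right of 0, while transport kinesins and dynein subunits lie on both sides of 0.

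Of 13 regulators tied to the promoter elements, 12 (all but Mybl2) were tested, of which 3 rose and 2 fell after CCl4 (median 0.44) and 3 rose and 1 fell after hepatectomy (median 0.04). Among all genes tested, 22.9% and 17.7% were called in either direction. Foxm1, which joins the MuvB complex in dividing cells, rose by 5.97 ± 0.46 (edgeR, adjusted p = 4.4e-05) and 4.19 ± 0.43 (adjusted p = 2.1e-07). Rbl1, a relative of the retinoblastoma protein, rose by 4.45 ± 0.45 (edgeR, adjusted p = 0.00016) and 1.49 ± 0.34 (adjusted p = 0.0031). E2f1 rose by 1.47 ± 0.39 (edgeR, adjusted p = 0.021) and 1.10 ± 0.34 (adjusted p = 0.027). Rbl2, which joins MuvB in resting cells, fell by 0.71 ± 0.17 (edgeR, adjusted p = 0.013) and 0.68 ± 0.12 (adjusted p = 0.00027). Lin54, the MuvB subunit that contacts the CHR, did not pass after CCl4 (0.83 ± 0.35; edgeR, adjusted p = 0.11), and of the NF-Y subunits Nfyb fell there (-0.68 ± 0.20; adjusted p = 0.038).

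Of 12 cell cycle reference genes, 12 rose after CCl4 and 9 of 10 tested after hepatectomy, where 11.3% and 9.73% of all genes tested did. The smallest p were those of Top2a (7.28), Cdk1 (4.50) and Ccnb1 (from 1 count over olive oil to 11.8 ± 5.82 CPM) after CCl4 and of Ccna2 (3.86), Ccnb2 (4.70) and Cdkn1a (3.15) after hepatectomy. Replication genes had smaller log2 changes than the kinesins: Pcna had 1.72 ± 0.26 (edgeR, adjusted p = 0.0012) and 0.55 ± 0.22 (adjusted p = 0.092), and Mcm2 had 3.01 ± 0.41 (adjusted p = 0.0012) and 1.42 ± 0.23 (adjusted p = 9.6e-05). In the control groups they were at 6.22 to 10.1 CPM (Pcna) and 1.88 to 7.45 CPM (Mcm2). Both differed between the challenges, larger after CCl4 by 1.20 ± 0.32 (edgeR, adjusted p = 0.028) and 1.62 ± 0.43 (adjusted p = 0.027). In all, 5 of the 12 reference genes passed that test, each larger after CCl4. The differences of the 12 ran from -0.52 to 3.35, so those of Pcna and Mcm2 were not the largest. No mitotic kinesin passed that test, though their median difference was 1.66, with standard errors of 0.83 to 2.54. With standard errors that large, a smaller difference in the kinesins than in Pcna and Mcm2 is not shown.

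Markers of liver cells were read from the same fits. In either direction, 22.9% of all genes tested were called after CCl4 and 17.7% after hepatectomy. Of 8 stellate cell and myofibroblast markers, none of them at 0 in any group, 6 rose after CCl4 and 4 after hepatectomy (medians 2.12 and 2.12), and their summed level was 105 to 155 CPM in olive oil, 411 to 1000.02 in CCl4, 109 to 216 in PH day 0 and 219 to 775 in PH day 3. In CCl4 they were lowest in replicate 1 and highest in replicate 2, as the kinesins were, while in PH day 3 they were highest in replicate 12 (775 CPM), where the kinesins were lowest. Of the 6 cholangiocyte markers, 1 of 2 tested rose after CCl4, and after hepatectomy Sox9 was at -0.11 and Spp1 at 0.65 (edgeR, adjusted p = 0.81 and 0.18), with sums of 53.5 to 108, 175 to 293, 77.6 to 179 and 137 to 246 CPM in the same order of groups. Among 9 macrophage markers 2 rose and 1 fell after CCl4 and 1 rose after hepatectomy (medians 0.18 and 0.04). Among 8 endothelial markers 2 rose after CCl4 and 2 fell after hepatectomy (medians 0.16 and -0.09). Of 7 hepatocyte markers 1 fell after CCl4, and 1 rose and 2 fell after hepatectomy. Of 5 erythroid markers 5 fell after CCl4 and 1 after hepatectomy. Of 8 lymphocyte markers, none after CCl4 and 1 after hepatectomy could be tested, and of 5 neutrophil markers 2 and none. The part of these cells in the kinesin values was not tested.

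The genes whose pattern over the 16 samples was most like the mean pattern of the members, by Pearson correlation of log2(CPM + 1) with each member standardised, were Ube2c (0.991), Nuf2 (0.991), Prc1 (0.990), Nusap1 (0.990) and Ttk (0.990). These values are a description over 16 samples that share their libraries, and they are carried by the difference between control and regrowing livers. Among the members themselves, each part of that mean, Kif4 came closest (0.990) and Kif23 was farthest (0.935). Prc1, a microtubule bundler of the midzone that binds Kif4, stood at 0.382 ± 0.357 CPM in olive oil, 37.8 ± 17.7 in CCl4, 0.843 ± 0.581 in PH day 0 and 24.4 ± 12.1 in PH day 3 (SD, n = 3, 3, 5 and 5).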

How the data were processed

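RNA of 16 whole liver samples in 4 groups was analysed. For each sample the authors deposited a table of raw read counts by gene. Per the file headers, read 1 was counted with featureCounts 1.6.2 over exons of Ensembl release 95 genes (GRCm38), reverse-stranded; STAR 2.5.1 and Subread are named per the submitters' processing notes. Such counting leaves out reads that fit several genes, which lowers genes with near copies such as Kifc1. Identifiers were matched to symbols of Gencode M21 (54723 of 54838).

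Counts were tested with edgeR 4.0.16 (R 4.3.3) by its quasi-likelihood F test with robust dispersion, TMM scaling, filterByExpr (minimum count 10, minimum total 15) and Benjamini-Hochberg adjustment over all genes tested, within the samples of each comparison; CCl4 against olive oil used 6 samples, PH day 3 against PH day 0 used 10, and the difference of the responses used 16. Alternatives were DESeq2 1.42.0, limma-voom (limma 3.58.1), other scalings, filters and thresholds, a replicate block and leaving out each sample. The fit was tested on simulated data. Intervals on ratios of counts are exact (Clopper-Pearson) at 95% and, like the floor of 3 counts, cover counting error only. Level per kb is CPM divided by the exon length in the files, which covers all annotated exons of a gene. Members and gene lists were chosen with earlier results of these data known. Of each pathway list the text names, after CCl4 and after hepatectomy, the 3 genes with the smallest p and those called against its direction; other names (such as Klc4, Racgap1, Tpx2, Rhoa, Numa1, Lin54, Pcna, Mcm2 and Mki67) were chosen after their values were seen. Likeness of pattern is the correlation with the mean of the members' standardised log2(CPM + 1). No 2 files were identical: replicate pairs differed beyond sampling noise, with chi-square per degree of freedom of 5.51 to 72.3. The highest values were those of CCl4 replicate 1 against replicate 2 (71.75) and replicate 3 (72.31), while CCl4 replicates 2 and 3 gave 8.97.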

Additional observations from a re-analysis of the deposited data

Results flagged for a closer look

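In 4 of 22 groups of 5 samples examined (each member and sums of members), the highest sample stood apart from the other 4 by more than the 95% critical value of Dixon's test. All 4 groups flagged are PH day 0 livers with very few reads. By chance that test flags about 1 in 20 groups of normally distributed values, a rate that does not apply to counts this low. Kif4 was at 1.613 CPM (7 counts) and Kif15 at 1.152 CPM (5 counts) in PH day 0 replicate 15, Kif18b at 1.028 CPM (3 counts) in replicate 16, and Kifc1 at 0.2623 CPM (2 counts) in replicate 12, the only day 0 sample with a Kifc1 read. Replicate 15 also had the highest summed kinesins of its group, 13.6 CPM.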

How the results depend on the processing

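Over the alternatives the log2 change of every member stayed above 0 in 140 of 140 refits after CCl4 and 168 of 168 after hepatectomy. After CCl4, 126 kept their call and 14 lost it, all of them Kif11, Kif20a or Kif23; after hepatectomy all 168 kept it, Kif15 and Kif18b being set against their fit without the filter and read where a filter lets them in. Members called after CCl4 were 7 with limma-voom or an adjusted p under 0.01 and 9 without the filter, and 8 to 10 when 1 sample was left out; after hepatectomy they were 8 to 10, and for the difference of the responses 0 to 0. Over all genes, the 2599, 1871 and 633 called in the 3 comparisons became 1258, 1090 and 255 at an adjusted p under 0.01 and 1461, 581 and 340 when the log2 change also had to be 1 or more in size; leaving out 1 sample gave 1492 to 3513, 1599 to 1810 and 384 to 931. The fewest after CCl4 were without olive oil replicate 3 (1492), olive oil replicate 1 (1629) and CCl4 replicate 2 (1623), and for the difference without olive oil replicate 3 (384) and CCl4 replicate 2 (419). The most were without CCl4 replicate 1, both after CCl4 (3513) and for the difference (931). With library size scaling the median log2 change of all genes moved to 0.46, 0.13 and 0.30, and the split of higher and lower calls went from 1279 and 1320 to 2973 and 423, from 1026 and 845 to 1617 and 432, and from 174 and 459 to 481 and 153; members called stayed at 10, 8 and 0. The difference of the responses turned negative for Kif20a with limma-voom (-0.32), without CCl4 replicate 2 (-0.26) and without PH day 0 replicate 15 (-0.31; -0.31 to 0.87 when 1 sample was left out), for Kif22 without olive oil replicate 3 (-0.017; -0.017 to 1.32), and for Kifc1 without CCl4 replicate 2 (-0.05), olive oil replicate 1 (-0.03), olive oil replicate 2 (-0.11) and PH day 0 replicate 12 (-1.54; -1.54 to 3.20); the cause was not tested. With the replicate number as a block 1864 genes and 8 members were called after hepatectomy, and 469 genes and 0 members for the difference. Whether equal numbers mark the same animal is not stated in the labels. Deviations of same-numbered PH samples correlated at -0.0666 to 0.178 and others at -0.174 to 0.118, and 2 of 5 day 0 samples matched their own number best. Correlations this weak cannot show whether the samples are paired. Depth limits the control groups, where a kinesin has 0 to 18 counts in a sample.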
